A study of Mus musculus with 115 samples.

Results

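The unphased screen asked how far a single transcription factor motif, set in one shared stretch of DNA, changes how accessible that DNA is in mouse embryonic stem cells. It comprised 108 constructs, of which 107 carried a motif and 1 carried none, out of 275 construct names in the series. The members were the constructs of the class that the files call unphased, without the 14 partner constructs whose names end in "_r", and MAX::MYC was counted once because its values in pools 13 and 17 were identical. The constructs were measured as 18 pools with 2 libraries each (36 of the 115 libraries), so the replicates are 2 libraries of the same pool. A construct is set here against the median construct of its own pool in the same library, which allowed 106 motifs to be ranked. E2F7 and the construct without a motif were each alone in their pool and are described at the end.

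The 36 libraries share 1 cell line, labelled 129S6/SvEvTac embryonic stem cells, with the constructs integrated at the recombinase-mediated cassette exchange locus, and the labels name no treatment, time or further genotype. The libraries differ in pool and replicate number only. No marker gene is measured by the assay, so the cell type rests on the label. The labels do not say whether the 2 libraries of a pool came from separate cultures, and p-values may then measure technical spread only. Every motif was read at 1 insertion site, and the constructs of a pool share their libraries.

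In NOMe-seq, a GpC methyltransferase marks cytosines that are not covered by a nucleosome or another protein, and bisulfite sequencing reads the mark. A high methylation level at GCH sites (a G, a C and then any base but G) is therefore read as open DNA. Many transcription factors cannot reach their motif when it is wrapped in a nucleosome, whereas some can bind and shift the nucleosomes beside it. A factor that stays bound shields its own motif from the enzyme while the DNA on either side becomes open, so that a low window between high flanks is the known shape of a footprint.

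The deposited values are methylation fractions per cytosine, given here as percent. In all, 14 GCH sites were shared by at least 90% of the constructs. The window, where the inserted motif differs between constructs, is 28 bp long and holds 2 to 5 sites, placed differently from construct to construct. Its bases are counted here from 1 at its left end, and shared sites are named by their distance from the nearer end of the window. The flanks are the 40 bp on either side and hold 1 shared site on the left, at 26 bp, and 2 on the right, at 10 bp and 33 bp. The far sites are 8 on the left, from 59 bp to 119 bp, and 3 on the right, at 43 bp, 56 bp and 89 bp. Along the shared backbone the median level was 58.1% at the left flank site but 33.9% at the first site on the right. Pool medians ran from 31.4% to 67.2% at the flanks, or to 47.4% in the 15 pools of more than 2 constructs, and from 32.1% to 50.2% in the window, and the 2 libraries of a pool differed by a median of 1.68 percentage points at the flanks. The files hold no read counts, so depth is unknown and no counting interval can be given.

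Opening was rare. At the flanks 6 motifs exceeded their pool median by at least 10 percentage points in both libraries, and they were REST, BANP, CTCF, MTF1, KLF5 and ZFP143. That is also the count over all 120 constructs tested, partners included (5.0%). Another 5 motifs fell short of the median by as much in both libraries (ZFP423, MYC, PKNOX1, ARID3B and CUX1), and with the partner CTCF_r the share over all constructs was again 5.0%. The median motif differed from its pool by -0.16 points, and 73 of the 106 motifs lay within 5 points of it. The limma test on the log2 odds of methylation (methylated over unmethylated fraction) called 5 motifs higher (4.17% of the constructs tested) and 6 motifs lower (5.83% of constructs, CTCF_r included) at a Benjamini-Hochberg adjusted p under 0.05. These calls depended on the reference: against the median of the other constructs of the pool, 37 motifs were called at the flanks in place of 11. Both libraries gave the same sign for 78 of the 106 motifs. As a description over motifs that share pools, the differences in the 2 libraries correlated with a Pearson r of 0.884 at the flanks, 0.848 in the window and 0.675 at far sites.

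The motif of REST, a zinc finger repressor of neuronal genes, had the largest flank gain over its pool median. The flank level of its construct was 82.3% and 84.5% in the 2 libraries, against pool medians of 37.6% and 41.7%. The gain of 43.8 ± 1.37 points (SD, n = 2) far exceeded the spread between libraries, and limma gave a difference in log2 odds of 2.87 ± 0.04 (SE) with an adjusted p of 0.0087. REST was first or second in the ranking under each alternative reference, flank width and setting tried.

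BANP, a factor that binds CGCG-containing elements at CpG island promoters, came second. The flanks of its construct stood at 79.8% and 73.6%, against pool medians of 46.8% and 47.2%, a gain of 29.7 ± 4.62 points. Its limma call was narrow (adjusted p = 0.0496) and was lost in 4 of the 15 alternatives that gave a test, among them the fit without the 2 constructs of pool 3. Over the 15 its adjusted p ranged from 1.50e-12 to 0.0727. The size of the gain stayed between 25.8 and 34.9 points over the same alternatives.

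CTCF, the zinc finger insulator protein that anchors chromatin loops, had the highest mean flank level of the screen, 84.7% and 90.3%. Its pool held only CTCF and its partner CTCF_r, so the pool median lies midway between them and the difference from it, 22.7 ± 0.55 points (adjusted p = 0.0285, limma), understates the contrast. Set against CTCF_r itself, whose flanks stood at 40.1% and 44.1%, the gain was 45.4 points (limma adjusted p = 4.13e-07). Against the median of all unphased constructs it was 45.6 points, and CTCF then ranked first, ahead of REST at 41.6 points.

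MTF1, KLF5 and ZFP143 formed a second tier with gains between 11 and 16 points. MTF1, the metal-responsive zinc finger activator, gave flank levels of 60.02% and 53.9%, against pool medians of 40.5% and 42.1%. Its gain of 15.7 ± 5.48 points varied between the libraries and did not pass limma against the pool median (adjusted p = 0.0889). It did pass against the median of the other constructs of its pool (limma adjusted p = 0.00096). KLF5, a Krüppel-like factor of the pluripotency network, gave 51.0% and 48.9%, against 37.8% and 36.5%. Its gain of 12.8 ± 0.61 points passed limma (adjusted p = 0.0285) and remained called in all 15 alternatives tested. ZFP143, the mouse counterpart of a promoter-binding zinc finger protein found beside CTCF at loop anchors, gave 52.4% and 53.7%, against 41.0% and 42.1%. Its gain of 11.5 ± 0.06 points had the same adjusted p (0.0285, limma) and was likewise called in each of the 15.

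The other 9 of the 15 highest flanks did not pass limma against the pool median. SP2, a GC-box binding factor, gained 17.1 and 8.14 points in its 2 libraries, and RFX2, a winged-helix factor of ciliary genes, gained 8.14 and 11.3 points. TRP53, the p53 tumour suppressor, gained 14.7 points in one library and 3.60 in the other, and YY1, a zinc finger protein of promoters and enhancers, gained 3.84 and 13.04. SP1 and SP3, further GC-box factors, SRF, the serum response factor, GLI2, the Hedgehog effector, and MAX::MYC, the E-box heterodimer, completed the highest 15 with mean gains between 5.85 and 8.11 points. The adjusted p-values of these 9 lay between 0.072 and 0.213. Against the median of the other constructs of the pool all 9 passed limma, with adjusted p-values from 0.0048 (SP2) to 0.0467 (MAX::MYC). Against the median of all unphased constructs SP2, RFX2 and SRF passed (limma adjusted p = 0.0022, 0.0057 and 0.0040). SP2 and SRF shared a pool with high flank medians, 43.3% and 47.4%. Their differences were 16.1 and 11.6 points by this reference, and 13.2 and 8.71 points from the other constructs of the pool. A difference from all unphased constructs does not separate motif from pool. TRP53, YY1, SP1, SP3, GLI2 and MAX::MYC did not. The shared pool of SP1 and SP3 had flank medians of 31.4% and 37.1% and that of GLI2 32.6% and 37.3%, and against the median of all unphased constructs SP3 and GLI2 no longer exceeded it (-0.97 and -0.46 points) and SP1 did by 0.48 points.

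Closed flanks were found for a different set of motifs. ZFP423, a zinc finger protein of neural and adipocyte development, had flank levels of 30.4% and 31.3%, against pool medians of 46.2% and 46.8%. The mean difference of -15.7 ± 0.22 points was the lowest of the 106 motifs and passed limma (adjusted p = 0.0285). MYC, whose protein binds E-boxes with MAX, was lower, at -14.9 and -15.4 points in its 2 libraries, and PKNOX1, a TALE homeodomain protein, was lower, at -16.1 and -13.988 points, both with an adjusted p of 0.0285 (limma). CUX1, a homeodomain repressor with CUT repeats, was lower, at -13.3 and -11.9 points, and ARID3B, an AT-rich interaction domain protein, was lower, at -11.5 and -13.988 points (limma adjusted p = 0.0285 and 0.0428). SMAD3, the TGF-beta effector, was lower, at -9.995 and -9.43 points and also passed (adjusted p = 0.041, limma). MYC, PKNOX1, ZFP423 and CUX1 were called in all 15 alternatives, ARID3B in 13 and SMAD3 in 12. The 15 include alternatives that repeat the main fit at the flanks, as given with the processing below.

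At ZFP423 and PKNOX1 the difference was largest at the first site on the right of the window. There, at 10 bp, the ZFP423 construct stood at 20.9% and 20.8%, a mean difference of -21.3 points from its pool median, and the PKNOX1 construct stood at 14.7% and 15.2%, a difference of -20.7 points. At the left flank site the differences were -13.5 and -8.79 points. The ARID3B construct differed by -16.6 points on the left and by -15.7 points at 10 bp on the right. PKNOX1 was under its pool median at all 14 shared sites, by -5.28 to -20.7 points, whereas ARID3B exceeded the median by 4.88 points at the leftmost site and by 5.89 points at the rightmost one.

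The left and the right flank gave much the same order of motifs, with larger differences on the right. Across the 106 motifs the left and right differences correlated with a Pearson r of 0.875 (Spearman 0.779), a description over constructs that share pools and libraries. By limma 10 motifs were higher on the left (9.17% of constructs) and 7 lower (7.5%), and 19 were higher on the right (16.7%) and 22 lower (22.5%), with 16.7% of constructs called on the left and 39.2% on the right in either direction. The test leaned more on a spread pooled over the screen on the right (34.4 prior degrees of freedom) than on the left (4.58). The counts of the 2 sides are therefore not alike in power. Set against the others of its pool, 11 of 120 constructs were called on the right in place of 47. At least 10 points in both libraries were gained on the left by REST, BANP, CTCF and KLF5 (3.33% of constructs), and on the right by these and by MTF1, RFX2 and ZFP143 (5.83%). As many points were lost in both libraries by ARID3B, CUX1, MYC and ZFP423 on the left (4.17%, with CTCF_r), and on the right by these and by NFAT5, PKNOX1 and SMAD3 (6.67%, with CTCF_r). RFX2 gained 11.4 and 13.7 points on the right, and 1.63 and 6.60 points on the left, a contrast between sides that was not tested.

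More motifs had a low window than open flanks. By the same rule 11 motifs fell short of their pool median in the window, 9.17% of the constructs tested, and 3 motifs exceeded it (3.33% of constructs with the partner REST_r). Among the low windows were those of REST, MAFG, RFX2, ARID3B, CUX1, ZFP423, ZFP143, POU5F1::SOX2, RARG and TBP, and the high ones belonged to KLF5, YY1 and SP2. The limma test called 21 motifs lower (17.5% of constructs) and 10 motifs higher (9.17% of constructs, REST_r included). The median motif differed from its pool by -0.11 points and 62 of the 106 lay within 5 points. A window mean also depends on where the sites of a construct lie. Among positions held by at least 10 constructs, the median level ran from 50.0% at base 1 to 32.7% at base 24.

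REST again stood at the head of the ranking. The window of its construct was methylated to 7.08% and 7.82%, against pool medians of 36.5% and 38.5%, and the difference in log2 odds was -2.75 ± 0.10 (limma adjusted p = 1.43e-06). All of its 4 window sites were low, with 7.53% and 7.63% at base 1 of the window, 5.57% and 5.40% at base 8, 3.86% and 4.54% at base 22, and 11.4% and 13.7% at base 26. Among the constructs that have a site at the same position, REST had the lowest mean level at each of the 4, where the medians were 50.0% (13 constructs), 41.8% (13), 41.9% (17) and 41.8% (16). Its partner REST_r had the highest level at bases 1, 8 and 26.

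MAFG, a small MAF protein that pairs with NRF2-type factors at antioxidant response elements, came second, with flanks that were not called. Its window stood at 23.6% and 28.5%, against pool medians of 46.4% and 50.2%, a difference of -22.3 ± 0.80 points (limma adjusted p = 0.000137). The flanks of the same construct differed from their pool by -4.17 and 0 points. In the second library MAFG was itself the median of the 9 constructs of its pool, so the 0 is set by the reference. The low level covered bases 9, 18 and 26, at 14.1% to 21.7% over both libraries, but not base 1 at 47.9% and 52.1%.

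RFX2 had a window difference of -19.4 ± 2.67 points (limma adjusted p = 0.000225). The RFX2 window stood at 22.4% and 18.8%, against pool medians of 39.9% and 40.1%. Its sites at bases 11, 17 and 24 lay between 9.78% and 17.5%, the lowest mean levels of any construct at those positions, where the medians of 13, 10 and 11 constructs were 43.4%, 44.8% and 32.7%.

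ZFP143 and POU5F1::SOX2 had shallower windows. ZFP143 was lower, at -15.5 and -16.7 points (limma adjusted p = 0.000278), and its 4 sites lay between 21.9% and 32.5%. POU5F1::SOX2, the composite element bound by OCT4 together with SOX2, was lower, at -14.7 and -11.5 points (limma adjusted p = 0.000991), with 15.4% and 19.96% at base 16. In the same pool the SOX2 motif differed by 1.36 and -1.63 points in the window, and POU5F1B, an OCT-type motif, exceeded its median by 4.96 and 13.5 points (limma adjusted p = 0.0228). The differences between these 3 motifs were not tested. RARG, a retinoic acid receptor, was lower, at -15.9 and -10.2 points (adjusted p = 0.00265), and TBP, the TATA-binding protein, was lower, at -10.6 and -13.2 points (adjusted p = 0.00218, limma for both).

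The REST, MAFG, RFX2 and ZFP143 windows were called in all 14 alternatives that gave a test, and RARG in all 13. These include alternatives that repeat the main fit, as given with the processing below. The windows of ARID3B, CUX1 and ZFP423 were low as well, at -19.0 ± 4.62, -17.2 ± 0.91 and -17.1 ± 3.70 points, yet these are the constructs whose flanks were closed. When the straight line between each construct's own levels at the nearest shared site on either side was subtracted from its window sites, ARID3B and CUX1 lost their call (-3.20 and -2.35 points against the pool) and ZFP423 changed sign (1.84 points). PKNOX1 and MYC, called lower in the window by limma at -9.37 and -7.58 points, changed sign in the same way (2.41 and 4.38 points). Of the 31 motifs called in the window in either direction, 13 were still called with the line subtracted. With the window narrowed by 5 bp at each end, 8 of the 31 were still called. Among those not called there were POU5F1::SOX2, TBP, ARID3B, CUX1, TRP53, GLI2 and YY1, while RARG had no site left to test.

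Within the windows of ARID3B, CUX1 and PKNOX1 the right end was low. The ARID3B window read 33.7% and 29.0% at base 6 but 13.7% and 15.9% at base 21, the lowest of the 47 constructs with a site there. CUX1, with 36.3% and 37.6% at base 7, had 18.7% and 19.9% at base 21, the second lowest. The medians over constructs were 47.7% at base 6, 45.0% at base 7 and 39.6% at base 21. PKNOX1 had 39.1% and 39.3% at base 6 and 23.6% and 20.5% at base 22. The 5 sites of ZFP423, by contrast, lay between 25.9% and 35.8%.

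Beside PKNOX1 and MYC, another 8 motifs were called lower in the window by limma without reaching 10 points in both libraries. TRP53 was lower, at -5.79 and -16.7 points, ESRRB, an orphan nuclear receptor of the pluripotency network, was lower, at -13.02 and -9.39, TGIF1, a TALE homeodomain repressor, was lower, at -10.6 and -7.99, and MTF1 was lower, at -5.82 and -12.7. HLTF, a helicase-like protein, MEF2D, a MADS-box factor, ATF1, a CREB-family factor, and HSF2, a heat shock factor, had mean differences from -8.77 to -5.41 points. Of these 8, ATF1, HSF2, MEF2D, MTF1 and TRP53 were no longer called when construct and pool median were treated as unpaired groups. With the line between the nearest shared sites subtracted, ATF1, HLTF, HSF2, MEF2D and TGIF1 lost their call.

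KLF5, YY1 and SP2 had the highest windows. KLF5 stood at 57.6% and 56.8% in its window, against pool medians of 40.3% and 38.8%, the largest gain (17.6 ± 0.40 points, limma adjusted p = 0.000278). Its 5 window sites were all open, from 52.7% to 60.1%. YY1 exceeded its median by 11.9 and 22.0 points and SP2 by 12.3 and 14.5 points (limma adjusted p = 0.00218 and 0.00131). SP2 had the highest mean level of all constructs at bases 4, 7 and 23, with 60.8%, 61.6% and 57.8%. GLI2 and MAX::MYC gained 11.7 ± 4.28 and 10.9 ± 9.09 points and were called by limma (adjusted p = 0.00377 and 0.0293). The MAX::MYC values stand under pools 13 and 17 alike, and set against the median of pool 17 its gain was 5.11 points and not called (limma adjusted p = 0.161), nor was it called when construct and pool median were unpaired. E2F3, a cell cycle regulator, SP1, POU5F1B, NFYA, a CCAAT-box subunit, and RREB1, a RAS-responsive zinc finger protein, were called as well, with gains between 6.90 and 9.43 points. GLI2, E2F3, SP1, POU5F1B, NFYA and RREB1 were not called against the median of all unphased constructs. With the line between the nearest shared sites subtracted, the KLF5 window exceeded its pool by only 2.82 points and the SP2 window differed by -4.55 points, and neither was called. E2F3, MAX::MYC, NFYA, POU5F1B, RREB1 and SP1 lost their call as well.

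Opening and protection met in few motifs. By the rule of 10 points in both libraries, REST and ZFP143 had high flanks and a low window, and KLF5 was high in both. BANP, CTCF and MTF1 had high flanks and a window mean that did not meet the rule, although limma called the MTF1 window lower. The CTCF window differed by -4.36 points from the midpoint of its pool, but by -8.73 points from CTCF_r (limma adjusted p = 0.0014) and by -10.4 points from all unphased constructs (limma adjusted p = 0.000195). The BANP window differed by -5.66 points, by -6.90 points from the others of its pool (limma adjusted p = 0.0218) and by -0.32 points from all unphased constructs (limma adjusted p = 0.92). By the same 10-point rule, MAFG, POU5F1::SOX2, RARG, RFX2 and TBP were among those low in the window only. SP2 and YY1 were high in the window only, MYC and PKNOX1 low at the flanks only, and ARID3B, CUX1 and ZFP423 low in both. The other 87 motifs met the rule in neither region. By limma the windows of MYC and PKNOX1 were also lower, and RFX2 and POU5F1::SOX2 were higher at the right flank. Across the 106 motifs the flank and window differences had a Pearson r of 0.0945 and a Spearman rho of 0.509, and the r was 0.36 without REST, given as a description over constructs that share pools.

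For BANP and CTCF the window mean hid a narrower dip. In the CTCF construct base 7 read 4.13% and 13.98%, base 20 read 7.49% and 13.5%, and base 25 read 11.2% and 15.4%. The ends of the same window were open, with 66.3% and 56.1% at base 2 and 67.3% and 70.1% at base 28. CTCF was the lowest of 35 constructs at base 7, where the median was 45.0%, and the lowest of 18 at base 20. In the BANP construct base 7 read 28.7% and 26.0% and base 21 read 23.5% and 22.6%, but base 28 read 80.3% and 74.8%, the highest of the 27 constructs with a site there. The 4 sites of MTF1, at bases 5, 11, 18 and 23, lay between 24.7% and 37.9%. None was at an end of its window, so such a contrast could not be seen there.

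The depth of the window relative to the flanks joins the 2 measures. It is the window minus the flank of a construct, less the median of that quantity over the constructs of its pool. REST had the deepest window at -78.3 ± 3.26 points, followed by BANP at -37.5 ± 1.80, RFX2 at -33.1 ± 4.03, ZFP143 at -28.0 ± 2.19, CTCF at -27.1 ± 0.47 and MTF1 at -25.0 ± 0.58. The CTCF value is taken from the midpoint of CTCF and CTCF_r, and against CTCF_r itself it was -54.2 points, or -56.9 points against all unphased constructs. POU5F1::SOX2 (-23.1), MAFG (-19.9), TRP53 (-19.4) and RARG (-10.6) were also among the 11 motifs that were at least 10 points lower in both libraries (9.17% of constructs). No motif was as much higher, and CTCF_r was the 1 construct that was (0.833%). TRP53 reached -19.8 and -19.0 points, since its 2 libraries differed by a like amount at the flanks and in the window. ARID3B was also called deeper by limma, at -6.32 points, whereas CUX1, ZFP423 and PKNOX1, at -3.08, -1.18 and 1.67 points, were not called.

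By limma 21 motifs had a deeper window than their pool (17.5% of constructs) and 7 a shallower one (9.17% of constructs with 4 partners). The test gave all constructs the same standard error of 0.08 on the log2 odds scale, and the calls therefore lean on a spread pooled over the screen. BHLHE40, a circadian E-box repressor, was among the deeper ones at -9.18 ± 1.74 points although neither its flanks (2.51 points) nor its window (-3.87 points) was called. TBP, at -5.70 points, and ESRRB, at -4.44 points, were also called deeper. The shallower windows belonged to ERF, GLI2, KLF5, MAX::MYC, MYC, SMAD3 and YY1, at 3.93 to 7.93 points.

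Far from the motif, REST and BANP were the 2 motifs that gained at least 10 points in both libraries (1.67% of constructs), and none lost as much (0.0%). The mean far level of the REST construct was 65.7% and 67.5%, against pool medians of 47.9% and 50.5%, and that of BANP was 69.1% and 68.8%, against 53.2% and 52.3%. CTCF gained 9.82 and 7.97 points over the mean of itself and CTCF_r, or 17.8 points over CTCF_r. The limma test called 7 motifs higher (5.83% of constructs) and 11 lower (11.7% of constructs with 3 partners), again with 1 standard error of 0.10 for all constructs.

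Most far calls depended on the choice of median. REST and BANP were called in all 11 alternatives tested and CTCF in all 9, including the use of all sites, which repeats the main fit. Against the other constructs of the pool, 5 motifs were called, namely REST, BANP, CTCF, PKNOX1 and ERF, an ETS-domain repressor. PKNOX1 had far levels of 39.5% and 41.0%, against pool medians of 49.4% and 49.0%, and ERF had 43.6% and 38.2%, against 50.2% and 49.5%. POU5F1::SOX2, RFX2, HES1, a Notch-responsive repressor, and GMEB1, a glucocorticoid modulatory element binding protein, were called higher with gains of 4.96 to 5.89 points, but none of them passed against the other constructs. The same held for 9 motifs called lower at -7.92 to -4.48 points, namely SMAD3, MAFG, PAX6, IRF1, MYC, ZFP423, MEF2D, POU2F1 and TFAP4. PAX6 is a paired-box factor of eye and neural development, IRF1 an interferon regulatory factor, POU2F1 the ubiquitous octamer-binding protein and TFAP4 an E-box factor. TFAP4 fell by 13.1 points in one library and exceeded the median by 3.42 points in the other, so its call rests on 1 library.

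Site by site, the gain of REST was greatest beside the motif and smaller with distance on both sides. On the right it was 54.1 and 53.1 points at 10 bp from the window, 49.9 and 48.1 at 33 bp, 44.3 and 40.6 at 43 bp, 32.1 and 34.9 at 56 bp, and 3.12 and 0.02 at 89 bp. On the left it was 29.9 points in both libraries at 26 bp, 20.4 and 24.5 at 59 bp, 15.6 and 14.7 at 84 bp, and 1.27 and -1.88 at 119 bp. In levels, the right side of the REST construct reached 82.8% and 85.0% at 10 bp and the left side 86.2% and 90.7% at 26 bp.

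BANP and CTCF took a like course on the right. BANP gained 39.1 and 30.7 points at 10 bp, 24.2 and 14.5 at 56 bp, and 2.94 and -8.37 at 89 bp. On the left its mean gain was 23.7 points at 26 bp, 15.9 at 59 bp, 16.1 at 105 bp and 6.51 at 119 bp. CTCF stood at 87.1% and 91.9% at 10 bp on the right, 74.7% and 76.9% at 56 bp, and 31.6% and 37.3% at 89 bp. On its left it stood at 88.6% and 93.6% at 26 bp and 43.6% and 36.9% at 119 bp. At both outermost sites the CTCF construct was lower than CTCF_r in both libraries.

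KLF5, ZFP143 and RFX2 had smaller gains at the nearest sites. KLF5 gained 15.01 and 15.4 points at 10 bp on the right and 13.7 and 13.4 at 26 bp on the left, but 2.44 and 2.69 points at 43 bp on the right. ZFP143 gained 16.9 and 15.4 points at 10 bp on the right, 8.13 and 7.76 at 43 bp, and 6.39 and 11.1 at 26 bp on the left. RFX2 gained 10.7 and 13.5 points at 10 bp on the right, 18.5 and 11.1 at 43 bp and 15.5 and 10.1 at 56 bp. Across the 106 motifs the flank and far differences had a Pearson r of 0.731 (0.654 without REST), again as a description.

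The motifs can also be read by the kind of DNA-binding domain, with lists that were drawn up with earlier results of these data known. The 5 KLF and SP motifs had a median flank difference of 8.11 points and a median window difference of 8.37 points, against -0.16 and -0.11 points over all 106 motifs. Against the median of all unphased constructs the 2 medians of this list were 0.48 and 3.61 points, so the flank value rests on the choice of reference. By limma 1 of the 5 was higher at the flanks (4.17% of all constructs) and 3 in the window (9.17%), and none was lower. KLF4, the reprogramming factor, shared a pool with KLF5. Its construct differed by -0.17 and -0.94 points at the flanks and by 1.02 and 0.33 points in the window.

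The 8 homeodomain and ARID motifs had medians of -7.47 points at the flanks and -7.06 points in the window. Of these, ARID3B, CUX1 and PKNOX1 were called lower at the flanks (5.83% of all constructs), and these and TGIF1 in the window (17.5%), while none was called higher. The list of other zinc fingers, which does not hold RREB1, has 12 motifs and had a median flank difference of 4.39 points over a range from -15.7 to 43.8. Of the 12, CTCF, REST and ZFP143 were called higher at the flanks (4.17% of all constructs) and ZFP423 lower (5.83%). In the window 5 were called lower (17.5% of all constructs) and 2 higher (9.17%).

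For the lists that follow, the limma calls over all constructs tested give the background. At the flanks 4.17% were called higher and 5.83% lower, and in the window 9.17% and 17.5%. The call counts of the lists were not tested against these shares. The 16 E-box motifs of the bHLH and PAS list had medians of 0.27 points at the flanks and -0.29 points in the window. Their flank differences ranged from -15.1 to 5.85 points and their window differences from -7.58 to 10.9. MYC, the 1 motif among them called at the flanks, fell by 15.1 ± 0.34 points. MAX::MYC differed there by 9.32 and 2.38 points and MYCN by -0.23 and 1.65 points. In the window MAX::MYC was called higher and MYC lower. The 7 ETS motifs had no call at the flanks or in the window, with flank differences from -4.03 to 3.49 points. The 10 bZIP motifs ranged from -3.87 to 4.03 points at the flanks, and in the window 2 of them, MAFG and ATF1, were called. The 7 nuclear receptor motifs ranged from -5.77 to 3.13 points at the flanks, with RARG and ESRRB called lower in the window. The 14 signalling, forkhead and p53 motifs had 1 flank call, SMAD3, and 2 window calls, HSF2 and TRP53. Of the 14 E2F, MYB, GMEB and promoter motifs, BANP was called at the flanks, and E2F3, NFYA and TBP in the window. The 4 POU and SOX motifs, the 3 RFX, SRF and MEF2 motifs, 2 motifs of other domains and 4 motifs in no list had no flank call, and 6 of these 13 were called in the window.

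NRF1, a promoter factor whose binding is known to be blocked by CpG methylation, differed little from its pool. Its flanks stood at 48.5% and 45.9%, against pool medians of 46.2% and 39.7%, and its window at 48.7% and 48.3%, against 47.6% and 43.9%. Neither difference passed limma (adjusted p = 0.196 and 0.326). ESRRB had flanks of 38.4% and 35.9% in the same pool, which differed from the median by -7.73 and -3.80 points (limma adjusted p = 0.119), and SOX2 differed by -4.33 and -8.95 points (limma adjusted p = 0.119). Against the median of the other constructs of the pool, ESRRB and SOX2 passed at the flanks (limma adjusted p = 0.0412 and 0.0109). NRF1 did not (limma adjusted p = 0.103). A p that misses the threshold in 2 libraries does not show that these motifs leave accessibility unaltered.

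The construct without a motif marks the level of the backbone alone. Its flanks stood at 41.0% and 42.8%, its window at 42.4% and 41.7%, and its far sites at 50.1% and 52.5%. Against the median of all unphased constructs of the same replicate number this was -0.0025 and 0.104 points at the flanks and 0.30 and -2.09 points in the window (limma adjusted p = 0.979 and 0.781), differences smaller than the range of the pool medians. E2F7, a cell cycle repressor, had flanks of 43.7% and 44.2%, a window of 39.7% and 39.3%, and far sites of 47.2% and 49.6%. It exceeded the median of all constructs by 2.68 and 1.47 points at the flanks and differed by -2.43 and -4.48 points in the window, and neither difference passed limma (adjusted p = 0.392 and 0.239). Its window minus its flanks was lower than the median by -5.57 and -7.18 points, which did pass (limma adjusted p = 0.013). As E2F7 was the sole construct of its pool, the motif and the pool cannot be told apart in these values, and the same holds for the construct without a motif.

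The 14 partner constructs served as a further gauge of the spread within a pool. At the flanks 10 of them lay within 5 points of their pool median, as did 10 in the window. Apart from CTCF_r, whose difference mirrors that of CTCF, no partner reached 10 points at the flanks in both libraries. REST_r exceeded its median in the window by 14.9 and 24.7 points (limma adjusted p = 0.000905) and at the flanks by 5.09 and 13.6 points. The window of REST, at -29.4 and -30.7 points from a pool median that includes REST_r, was at -31.5 points against the other constructs of the pool.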

How the data were processed

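GCH methylation of the 122 unphased constructs was taken from the deposited tables of 36 amplicon NOMe-seq libraries. The values are a fraction per cytosine and construct, deposited by the authors without counts. Bisulfite conversion and PCR preceded library preparation, per the labels' protocols. The submitters' processing notes name Trimmomatic 0.32. Aligner, caller, coverage filter and build are not given in the sources used here. PCR amplification and an unknown depth limit the precision of each value.

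Of 4226 values 4 were missing. Region levels were means over sites, and 1 construct whose right sites were shifted by 1 bp was aligned. Within each library the pool median was subtracted, in percentage points and as log2((f + 0.01)/(1 - f + 0.01)). The log2 differences were tested against 0 with limma 3.58.1 in R 4.3.3 (two-sided, Benjamini-Hochberg over 120 constructs, adjusted p under 0.05), tested on simulated data beforehand. A pool median includes the construct itself. A size rule asked for at least 10 points with the same sign in both libraries. The pairing comes from reading construct and median in the same library: in the flanks 77 of 120 constructs deviated between libraries in the same direction as the rest of their pool, in the window 68 and at far sites 72. For this check the median of the other constructs of the pool was subtracted, not the pool median of the main fit. It hardly moved the SD of the gap between libraries in the flanks (4.73 points with it and 4.72 without) or in the window (4.92 both ways). At far sites the SD was 3.61 with it and 4.22 without. Scripts used Python 3.11.15, numpy 2.4.6 and pandas 2.3.3. DNA sequences of the constructs were not used here. One motif that enters the counts is not reported here by name.

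Named motifs were the 15 highest flanks and 15 lowest windows, the 5 lowest flanks, 5 highest windows and 5 highest and lowest far levels with 1 sign in both libraries, every motif called by limma, and a set of 12 known factors; BHLHE40, MYCN, NFAT5, E2F7 and single partners were named after their values were seen. Members, lists, regions and rules were chosen with earlier results of these data known. Alternatives covered the reference median, scale, pseudocount, pairing, prior, region edges, left-out pools and left-out libraries. After seeing the data, 3 were added: the line subtracted from window sites, pool 3 left out, and constructs that were their own pool's median left out. No construct was its own median in both libraries at the flanks or in the window, so leaving such constructs out repeats the main fit there. Keeping flank sites with a median under 20% also repeats it, as there were none. Taking all sites of a construct repeats the main fit in every region, as every site outside the window was shared. A call kept in these alternatives was fixed in advance.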

Additional observations from a re-analysis of the deposited data

How the results depend on the processing

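Of 1244 recomputed values of the named motifs, 1038 were labelled unchanged. Where a test was run, this means the same direction and the same side of the threshold. The 79 and 80 unchanged values without replicate 1 and without replicate 2 had no test. A single library always lies within the SD of the 2 around their mean, so that label was fixed in advance. The 26 values with low flank sites kept repeat the main fit, as no flank site was low. So do the 80 values with all sites of a construct, as every site outside the window was shared. The flank count of 12 constructs became 42 against the other constructs of the pool, 48 against all unphased constructs, 30 (17 higher, 13 lower) and 29 (15 and 14) with flanks of 20 bp and 60 bp, and 52 with site-wise differences, against 5 higher and 7 lower. Without pool 3 it was 8. The window count of 32 (11 higher, 21 lower) became 53, 59, 50 (27 and 23) without partners in the median, 49 in percentage points, 8 with the window narrowed by 5 bp at each end (112 constructs tested), and 49 for the lowest site. The far count of 21 (7 and 14) became 6 (3 and 3), 3 (3 and 0) and 2 (2 and 0) against the other, all and non-partner constructs. The left count of 20 (11 and 9) became 42 (16 and 26) against all constructs, 0 against non-partner constructs, 8 in percentage points, and 31 without the constructs that were their own median, and the right count of 47 (20 and 27) became 11 and, against non-partner constructs, 16 (5 and 11). The depth count of 32 (11 and 21) stayed between 27 and 36, with 17 and 19 without partners in the median. The cause of these shifts was not tested.

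The differences above are paired within a library, except those against all unphased constructs and those of E2F7 and the construct without a motif, whose median came from libraries of the same replicate number in all pools. With no replicate block the flank count was 16, the window count 19 (4 higher, 15 lower), the far count 5 (3 and 2), the left count 8 and the right count 20. Leaving out 1 library of each pool leaves no degree of freedom, so limma was not run there, and the counts by size ranged as follows: flank higher 9 in each case against 6, flank lower 6 to 8 against 6, window higher 6 against 4, window lower 14 to 17 against 11, and far lower 1 to 3 against 0. At 15 points these counts were 3, 2, 1 and 7, and against the other constructs of the pool window higher was 7 and far lower 1.

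Against all constructs SP3 and GLI2 turned to -0.97 and -0.46 points at the flanks and KLF4 to -2.74 points in the window, and KLF4 turned to 0.21 points with flanks of 60 bp. TFAP4 at far sites ranged from -13.1 to 3.42 points over the single libraries, 3.42 without replicate 1. SOX2 in the window was 6.50 points against non-partner constructs, 1.43 in the narrowed window, 0.90 at its lowest site and 5.04 with the line subtracted. With the line subtracted the window also turned in ZFP423 (1.84), PKNOX1 (2.41), HLTF (0.19), HSF2 (0.42), MYC (4.38), SP2 (-4.55), POU5F1B (-1.74), RREB1 (-0.69), SP1 (-1.03) and NRF1 (-1.25). The 31 motifs called in the window became 26 with the line subtracted, and 13 were shared. Missing read counts mean that a deeply and a thinly read construct weigh alike.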
